A study of Homo sapiens with 12 samples.

Results

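A673 is an established cell line of Ewing sarcoma, a tumour of bone and soft tissue driven by EWS/FLI, a fusion of EWSR1 with the ETS gene FLI1. Described here are A673 cultures given 500 nM of THZ_5_31_1 for 6 hours against A673 cultures given the solvent DMSO for 6 hours. The compound is written THZ531 elsewhere, and it is a covalent inhibitor of the kinases CDK12 and CDK13. The arrays were chosen by their titles and make up 4 of the 12 arrays of the series, 2 biological replicates with DMSO (called DMSO-1 and DMSO-2) and 2 with 500 nM (THZ-1 and THZ-2). The others hold A673 at 100 nM and a second Ewing sarcoma line, TC32, under the same treatments, and they enter only where the text says so. The question behind the series, per its title, is how Ewing sarcoma cells depend on CDK12. Every culture grew in DMEM with fetal bovine serum. A dose of 100 nM also stands in the labels of the DMSO cultures and was taken not to apply. Each group is one line in culture, and the labels do not say whether replicates came from separate passages, so p-values reflect the spread among these arrays alone. Among 18132 gene symbols with a single-gene row in the value table, 16944 had a row with 3 decimals whose values no other symbol shared, and these are the genes described. The 10166 of them with a mean log2 level of at least 5.94 over the 12 arrays (the 40th percentile) were tested.

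CDK12 and CDK13, each with cyclin K, phosphorylate the tail of RNA polymerase II and so keep it moving through genes. Loss of CDK12 activity is known to lower the transcripts of long genes and of DNA damage response genes, often with early cleavage of the RNA inside introns. When synthesis of RNA is held back, short-lived transcripts leave the cell within hours and long-lived ones stay. Some RNAs are made in other ways: replication-dependent histone mRNAs end in a stem loop in place of a poly(A) tail, and most small nucleolar RNAs are cut out of the introns of other genes.

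The values are log2 signals, and the arrays differed in their overall level. Over the 16944 kept genes the array medians were 7.32 and 7.07 with DMSO against 6.60 and 6.13 at 500 nM. Both 500 nM arrays lay below both DMSO arrays, by 0.83 on average, and an exact two-sided permutation test gave p = 0.333, the smallest that 2 against 2 arrays allow. An ERCC mix of external RNA controls was spiked in, per the labels, and whether the values were scaled to it is not given in the sources used here. A shift of all genes can therefore not be told apart from a scaling of the arrays, nor can fewer cells be told apart from less RNA per cell. The 500 nM replicates were themselves offset by a median of 0.52, with THZ-2 the lower, against 0.12 for the DMSO replicates. Each difference is for this reason given on 2 scales, as deposited and after centring, that is, relative to the array medians once each array's own was subtracted.

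As deposited, 8391 of the tested genes fell at 500 nM and 96 rose (82.5% and 0.944% of the tested genes, limma with Benjamini-Hochberg adjusted p under 0.05), with a median difference of -0.73. Both 500 nM arrays were below both DMSO arrays for 82.9% of the genes and above both for 1.05%. At least a 2-fold fall was called for 3391 genes, a 4-fold one for 745 and an 8-fold one for 117, and at least a 2-fold rise for 44. After centring, 3026 genes were higher and 2786 lower (29.8% and 27.4%). All of the 2786 and all of the 96 had been called in the same direction as deposited. Another 1274 genes changed sides, lower as deposited and higher after centring, so for them the direction is that of the scaling. The split of higher and lower calls also moved with the way of centring, to 3637 and 2637 under quantile normalisation and to 5881 and 2031 when arrays were centred on their 75th percentile, which put the median gene at 0.37 in place of 0.10.

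**Figure D1:**
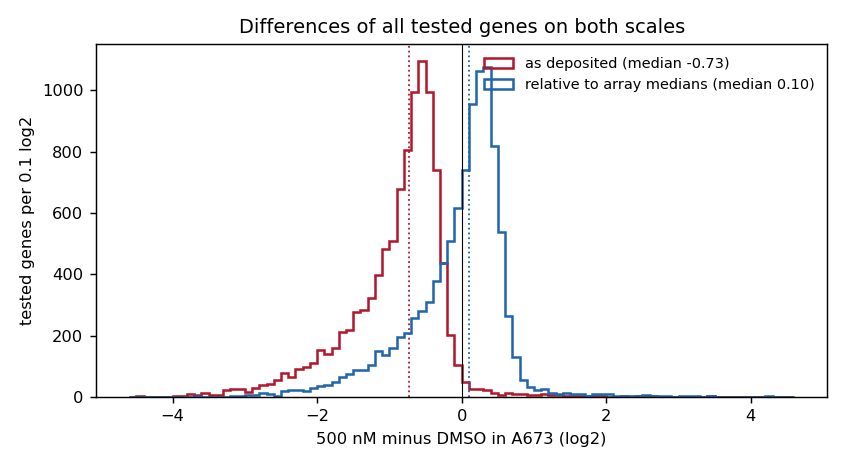
Histogram of the fitted difference between 500 nM and DMSO in A673 (x axis, log2) over the 10166 tested genes, counted in steps of 0.1 (y axis), as deposited in red and after centring in blue. The red median lies at -0.73 and the blue one at 0.10, and the blue shape is the red one moved up by the mean gap of 0.83 between the array medians.

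How far a gene fell went with its level in the DMSO arrays. In 5 classes of equal size by DMSO level, the median difference as deposited was -0.48 in the lowest class, -0.83, -0.998 and -0.94 in the middle ones and -0.59 in the highest. Relative to the array medians, 51.2% of the genes in the lowest class and 47.7% in the highest were called higher, against 13.8% in the middle class. The DMSO level is part of the difference, so this is a description with no test. Genes near the lower end have little room to fall on an array, and this bears on every count of relative rises among dim genes. Of the tested genes, 688 had a 500 nM mean under 5.94. Folds of such genes are given as bounds from that level.

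The targets and the fusion partners come first. CDK13 stood at 8.38 and 8.37 with DMSO against 5.68 and 5.77 at 500 nM, and its 500 nM mean lay under the filter level, so the fall was at least 5.39-fold as deposited. CDK12 stood at 8.49 and 8.30 with DMSO against 7.16 and 6.67 at 500 nM, a difference of -1.48 ± 0.21 (SE) as deposited and -0.64 ± 0.12 after centring (limma adjusted p 0.00014). CCNK, the gene of cyclin K, was at -0.91 as deposited and -0.08 after centring, and the second value did not pass the test (adjusted p 0.54). FLI1 stood at 10.85 and 10.87 with DMSO against 8.39 and 8.01 at 500 nM, 6.32-fold lower as deposited and at -1.83 relative to the array medians. EWSR1 was at -0.46 as deposited and 0.38 after centring, opposite in sign, and without THZ-2 it did not pass the test as deposited. An array signal for FLI1 or EWSR1 does not tell the fusion transcript from the normal one.

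The line was checked against markers of Ewing sarcoma. CD99, the surface protein used to diagnose the tumour, had a level of 13.89 and 13.74 with DMSO, STEAP1 12.55 and 12.51 and the EWS/FLI target NKX2-2 10.86 and 10.63. Of 17 tested markers 15 fell as deposited, with a median of -0.86, beside 82.5% and -0.73 over all tested genes. Relative to the array medians 3 were lower and 6 higher, beside 27.4% and 29.8% over all tested genes, and under quantile normalisation it was 6 lower and 3 higher. The deepest fall was that of the transcription factor BCL11B, from 10.50 and 10.45 to 7.22 and 6.51, a difference of -2.77 after centring. The muscle stem cell factor PAX7, with 8.19 and 7.97 with DMSO against 6.10 and 5.71 at 500 nM, and NKX2-2 (-0.37 after centring) also fell on both scales, NKX2-2 not without THZ-2, while CD99 (-0.31 as deposited, 0.52 after centring) changed sides and under quantile normalisation lay at -0.06. Of 23 markers of other cell types 10 reached the filter level, 4 of 5 neural, 3 of 5 epithelial, 2 of 4 endothelial and 1 of 4 muscle ones. The keratin gene KRT18 was bright, at 12.05 and 11.84 with DMSO against 12.26 and 11.61 at 500 nM, and the synaptic vesicle gene SYP stood at 8.50 and 7.94 with DMSO against 7.98 and 7.36 at 500 nM. KRT8 was at 6.75 and 6.79 with DMSO against 6.77 and 6.51 at 500 nM and GFAP, of astrocytes, at 7.32 and 6.86 with DMSO against 6.96 and 6.47 at 500 nM. None of the blood cell markers was tested, since the filter used the mean over all arrays of both lines. PTPRC was at 3.69 and 3.76 with DMSO against 4.03 and 3.98 at 500 nM. CD3E was above the filter level on both DMSO arrays, at 6.385 and 6.102 against 5.988 and 5.485 at 500 nM. ITGAM was above it on DMSO-1 only, at 6.145 and 5.343 with DMSO against 5.602 and 5.234 at 500 nM. The untested endothelial KDR was at 6.636 and 6.095 with DMSO against 6.053 and 5.962 at 500 nM. MYOD1, of muscle, was at 5.28 and 5.36 with DMSO against 5.04 and 5.03 at 500 nM. As deposited the differences of the 10 ran from -0.60 to -0.01. After centring 7 of the 10 were higher and the median was 0.45, among them KRT18 (0.83), KRT8 (0.70) and GFAP (0.45). That count was 3 without THZ-1 and 4 without DMSO-2.

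The 20 largest falls among genes whose group means both stayed at or above the filter level ran from 13.6-fold to 9.89-fold as deposited, and 2397 genes were eligible. In every one of them both 500 nM arrays lay over 2 log2 units below both DMSO arrays. The deepest was ARID2, a subunit of the PBAF form of SWI/SNF chromatin remodellers, with 10.53 and 10.55 with DMSO against 7.02 and 6.54 at 500 nM, a difference of -3.76 ± 0.21 (SE, 2 against 2 arrays) as deposited and -2.93 ± 0.12 after centring (limma adjusted p 5.17e-14). GTF2E1 followed with 10.46 and 9.88 with DMSO against 6.63 and 6.22 at 500 nM; it encodes the large subunit of TFIIE, a general factor that recruits TFIIH to the promoter. ZMYND8, a reader of histone marks, stood at 9.80 and 9.89 with DMSO against 6.31 and 5.92 at 500 nM. The splicing factor gene CWC22, which brings the exon junction complex to spliced RNA, went from 9.83 and 9.54 to 6.06 and 6.05, with its treated replicates closer together than those of any other of the 20. Dividing-cell genes were among them. NDC80, of the kinetochore complex that grips microtubules, went from 10.17 and 10.47 to 6.86 and 6.73, a difference of -2.69 after centring. KIF18A, a kinesin that damps chromosome movements in metaphase, was at -2.82. STIL, needed to build new centrioles, was at -2.47, and CASP8AP2, which histone mRNA production requires, at -2.88. The remaining falls included signalling genes and regulators of RNA and protein turnover. GDF6, a secreted ligand of the BMP family, was the brightest of the 20 with DMSO, at 11.51 and 11.69, and went to 8.19 and 7.97. GLI2, a transcription factor of the Hedgehog pathway, fell from 9.68 and 9.52 to 6.22 and 5.74. FBXL5, the ligase subunit that degrades iron regulatory protein, was at -3.54 as deposited, FBXO28, another F-box gene, at -3.57, and PUM2, an RNA-binding repressor of mRNAs, at -3.34. BCL11B was given above. ARID5B, RAPGEF6, ZBED5, ZNF7, MTERF1 and KANK1 made up the rest with differences between -3.63 and -3.36. All 20 also fell under each alternative processing tried.

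**Figure D2:**
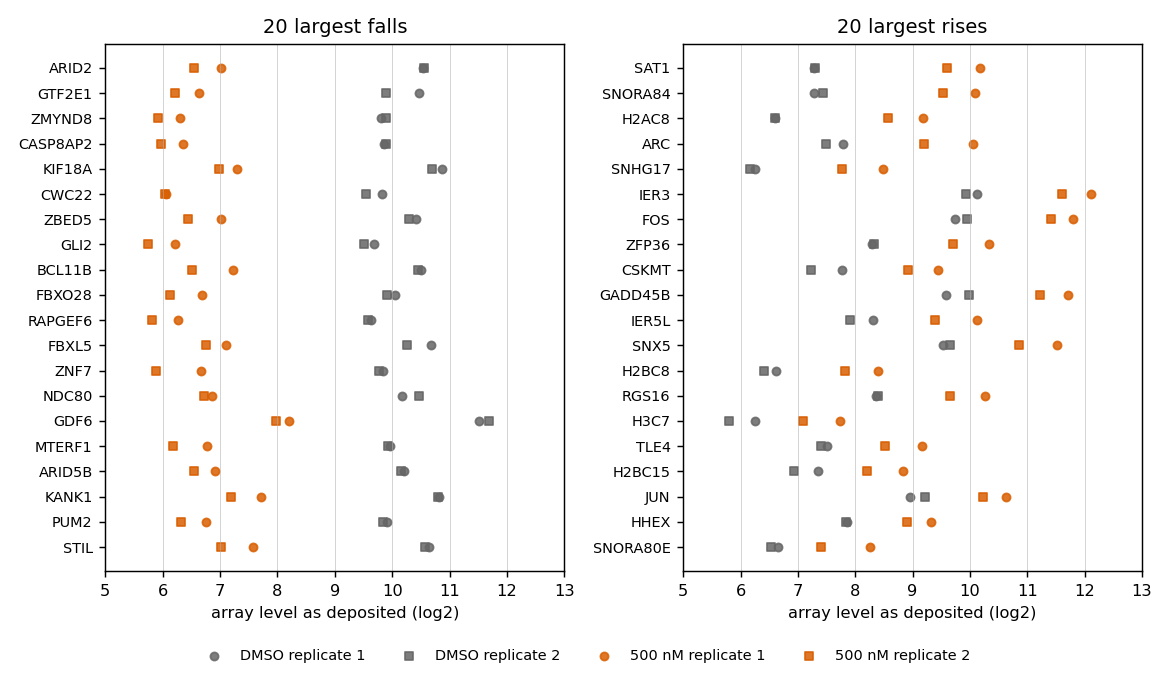
Level on each of the 4 A673 arrays (x axis, log2 as deposited) for the 20 largest falls (left) and the 20 largest rises (right), DMSO in grey and 500 nM in orange, replicate 1 as circles and replicate 2 as squares. In every gene drawn the orange pair lies wholly on one side of the grey pair, and the orange square lies left of the orange circle.

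Only 82 genes were eligible as rises by the same rule. The largest was SAT1, the enzyme that acetylates spermidine and spermine and so starts the breakdown of polyamines. It stood at 7.28 and 7.29 with DMSO against 10.18 and 9.60 at 500 nM, a difference of 2.60 ± 0.21 as deposited and 3.44 ± 0.13 after centring (limma adjusted p 8.48e-15), 6.07-fold as deposited. Both 500 nM arrays lay over 2 log2 units above both DMSO arrays. The next 8 genes are given together, a grouping made after their values were seen. Several of them are known as immediate-early genes, which encode transcription factors and feedback proteins whose short-lived mRNAs appear within minutes of a stimulus. FOS stood at 9.74 and 9.95 with DMSO against 11.80 and 11.41 at 500 nM, a difference of 1.76 ± 0.19 as deposited. JUN, its partner in AP-1, was at 1.35 ± 0.20, from 8.95 and 9.22 to 10.63 and 10.22. The stress and survival gene IER3 reached 12.10 and 11.61 from 10.12 and 9.93, the highest level among the 20. ZFP36, which binds AU-rich elements and speeds the decay of mRNAs, was at 1.71, the growth arrest gene GADD45B at 1.68, the neuronal immediate-early gene ARC at 1.99, IER5L at 1.66 and RGS16, which shortens G protein signals, at 1.58. The DMSO level of these 8 genes was between 7.48 and 10.12, so their rises did not start at the floor of the arrays. TLE4, a corepressor of the Groucho family, rose from 7.51 and 7.40 to 9.17 and 8.51 and the homeobox gene HHEX from 7.85 and 7.84 to 9.32 and 8.90. SNX5, which encodes a part of the machinery that sorts proteins out of endosomes, rose from 9.53 and 9.65 to 11.52 and 10.86, and CSKMT, a methyltransferase gene of mitochondrial citrate synthase, from 7.76 and 7.23 to 9.44 and 8.92. The other members were 4 histone genes, 2 small nucleolar RNAs and SNHG17, a host gene of such RNAs. All 20 were higher under each alternative processing tried.

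Replication-dependent histone genes, which supply the histones that package new DNA in S phase, were the one protein-coding list with a positive median as deposited. Of 62 such genes kept, 27 reached the filter level and were tested. As deposited 15 rose and 7 fell (background 0.944% and 82.5%), with a median of 0.71, and after centring 24 were higher, with a median of 1.54. Over the 24 tested genes whose DMSO mean reached the filter level the medians were 0.28 and 1.11, with 12 rising and 7 falling as deposited. Both counts as deposited moved when single arrays were left out. Rises were fewer and falls more numerous without DMSO-2 or THZ-1, and falls were fewer without DMSO-1 or THZ-2. In H2BC7, H3C1 and H4C5 the DMSO mean lay under the filter level, and the other 35 kept genes had a mean over the 12 arrays under it. That mean takes in the treated arrays, so genes that rose could pass where others at the same DMSO level did not. Some of the 35 had a DMSO mean above the filter level. H1-1 went from 6.882 and 6.653 to 6.666 and 6.09, H4C7 from 6.14 and 5.857 to 5.463 and 5.687, and H2AC15 from 6.397 and 5.945 up to 6.736 and 6.177. By class, all 5 tested H3 genes rose as deposited, with a median of 0.83, and 6 of 9 tested H2B genes, 1 of which, H2BC20P, is a pseudogene. H3C7 went from 6.25 and 5.79 to 7.73 and 7.10, H3C4 from 7.22 and 6.71 to 8.05 and 7.44 and H2BC15 from 7.35 and 6.92 to 8.83 and 8.20. Of 6 H2A genes 3 rose, H2AC8 at 2.28 ± 0.21, from 6.60 and 6.61 to 9.18 and 8.58, H2AC11 at 1.09 and H2AC17 at 0.71, while H2AC20 fell by 0.99 on the log2 scale. The 4 linker histone genes (H1) all fell as deposited, between -1.10 for H1-3 and -0.46 for H1-2. H4C3, the brightest of the 27 with 13.36 and 13.12, fell to 13.06 and 12.57. The 15 that rose had DMSO means of at most 7.77, that of H2AC17. These genes are near copies of each other, so one gene's signal may include RNA of its neighbours.

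Promoters of 3 of the rising genes are printed here because the tested histone genes share sequence signs with each other and, in part, with FOS. Each line gives the 250 bases before the RefSeq start in GRCh38.p14, 5′ to 3′ on the gene's strand, with CCAAT (or its reverse complement ATTGG) and TATAAA (or TTTATA) in capitals. H2AC8 lies at chr6:26216671-26216920 on the plus strand, H3C7 at chr6:26250636-26250885 on the minus strand and FOS at chr14:75278578-75278827 on the plus strand.
H2AC8: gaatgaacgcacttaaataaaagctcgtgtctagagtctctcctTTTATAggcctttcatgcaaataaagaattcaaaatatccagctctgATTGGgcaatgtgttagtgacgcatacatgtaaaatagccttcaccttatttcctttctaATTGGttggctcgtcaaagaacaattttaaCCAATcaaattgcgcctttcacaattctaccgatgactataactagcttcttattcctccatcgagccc
H3C7: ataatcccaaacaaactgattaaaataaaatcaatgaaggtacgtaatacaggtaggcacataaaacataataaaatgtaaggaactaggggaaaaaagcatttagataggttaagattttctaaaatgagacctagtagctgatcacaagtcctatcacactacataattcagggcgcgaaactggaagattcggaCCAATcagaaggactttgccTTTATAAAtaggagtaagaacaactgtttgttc
FOS: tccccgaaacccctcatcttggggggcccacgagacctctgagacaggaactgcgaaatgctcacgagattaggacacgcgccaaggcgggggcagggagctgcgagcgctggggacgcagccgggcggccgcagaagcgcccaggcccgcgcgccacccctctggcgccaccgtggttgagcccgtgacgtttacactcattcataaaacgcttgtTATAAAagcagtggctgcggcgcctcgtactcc
H2AC8 and H2BC8 are divergent genes whose starts lie 233 bases apart, so the window of H2AC8 is nearly that of H2BC8 read from the other strand. H2BC8 rose too, from 6.62 and 6.41 to 8.40 and 7.82. Over both strands of this window, CCAAT stood in 22 of the 24 tested histone genes with a printed promoter in RefSeq's set (91.7%), against 35.4% of 8411 tested genes and 33% of all 27305 promoters. TATAAA stood in 15 of the 24 (62.5%), against 5.6% and 11.1%. Among the 20 largest rises 16 had a promoter in the set, and 12 of them held CCAAT and 6 TATAAA. Among the 20 largest falls 17 had one, with 9 and 1. A serum response motif was also counted, in 0 of the 16 rises and 0 of the 17 falls, against 1.02% of the tested genes. With so rare a motif and only 250 bases read, the 0 does not show that these genes lack it. The cyclic AMP response element stood in 1 of each, against 3.03% of the tested genes. The rises with CCAAT took in the histone genes H2AC8, H2BC8, H3C7 and H2BC15, the first 3 of them with TATAAA too. The matches of H2AC8 and H2BC8 are the same stretches of sequence, counted for each gene. Counts over histone genes are therefore not counts of separate promoters. Histone genes that fell as deposited held CCAAT as well (H1-2, H1-3, H1-4, H1-5 and H2AC20), and H1-3, H1-4 and H2AC20 held TATAAA. So neither CCAAT nor TATAAA set apart the histone genes that rose. A match is a run of letters and not a site in use. In H3C7 the 2 TATAAA matches, 1 on each strand, overlap.

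Small nucleolar RNAs, which guide the chemical modification of ribosomal and spliceosomal RNA, had a median of 0.26 as deposited and 1.09 after centring. The first value rests on 4 members whose A673 DMSO mean lay under the filter level. Over the 17 tested members whose DMSO mean reached it the medians were -0.09 and 0.74, with 5 rising and 1 falling as deposited. Of 48 kept, 21 reached the filter level, 9 rose and 1 fell as deposited, and 20 of the 21 were higher after centring. The 1 called fall, that of SNORA74B, was lost without DMSO-1 or THZ-2, and 6 fell without THZ-1 and 3 without DMSO-2. The filter mean takes in the treated arrays, so these medians and counts rest on members chosen in part by their treated level. Some untested members had a DMSO mean above the filter level, and all of these but SNORA5A were lower at 500 nM on average. SNORA47 went from 7.349 and 6.701 to 5.915 and 5.62 and SNORA49 from 6.537 and 6.116 to 4.95 and 4.399. Other untested members rose from under that level, such as SNORA53, from 4.079 and 4.468 to 6.264 and 6.168. SNORA65 had the largest rise of the tested members, with 5.21 and 5.79 with DMSO against 9.20 and 8.69 at 500 nM. It was at least 7.99-fold higher, since its DMSO mean lay under the filter level. SNORA84 went from 7.29 and 7.44 to 10.08 and 9.53. SNORD12B, SNORA74A and SNORA26 also started under the filter level, and reached 8.26 and 7.75, 7.93 and 7.44 and 7.24 and 7.07. At the other end of the tested members SNORA74B was at 8.40 and 7.61 with DMSO against 7.77 and 7.15 at 500 nM. THZ-1 lay inside the DMSO range. Whether the surrounding gene moved the same way was read from the annotation. Small RNAs inside several annotated genes were left out. They were SNORA71D (0.48 after centring), inside SNHG17 (2.75) and another gene, and SNORA74A (3.06), inside 3 genes. For 14 of the 21 a single annotated gene spans the small nucleolar RNA and was tested. Among these holding genes 9 fell and 2 rose as deposited, and after centring 8 were higher and 3 lower. In 11 of the 14 pairs the small RNA stood above its holding gene in difference, and without SNORA65, which started under the filter level, in 10 of 13, with medians of 0.74 and 0.27 relative to the array medians. The ribosomal protein gene RPL12, which holds SNORA65, was at 0.55. Among the other pairs the contrast was widest for SNORA84 in IARS1, the cytoplasmic isoleucyl-tRNA synthetase, at 3.28 against 0.27; IARS1 itself lay at -0.17 under quantile normalisation. Holding genes that fell on both scales were KANSL2, of the NSL acetyltransferase complex, at -1.68 against 0.58 for SNORA2C, KHDC4 at -0.46 against 2.08 for SNORA80E, and PTCD3 at -0.54 against 0.77 for SNORD94. The relative call of KHDC4 was lost without DMSO-2 or THZ-2. SNX5 and the SNORD17 it holds rose together (2.43 and 1.82). In SNHG9 and ATP6V0E1 the holding gene stood above its SNORA78 or SNORA74B. Which strand each RNA lies on was not used, and a probe inside an intron can also read the unspliced transcript of the holding gene; that share was not tested. The host genes named for such RNAs were mixed. SNHG17 rose from 6.25 and 6.17 to 8.48 and 7.78 and SNHG9 from 7.38 and 7.15 to 8.53 and 7.97, whereas SNHG7 (-1.53 as deposited) and SNHG12 (-1.14) fell on both scales, SNHG12 after centring not without DMSO-2, THZ-1 or THZ-2. Of 8 tested, 6 were higher after centring.

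**Figure D3:**
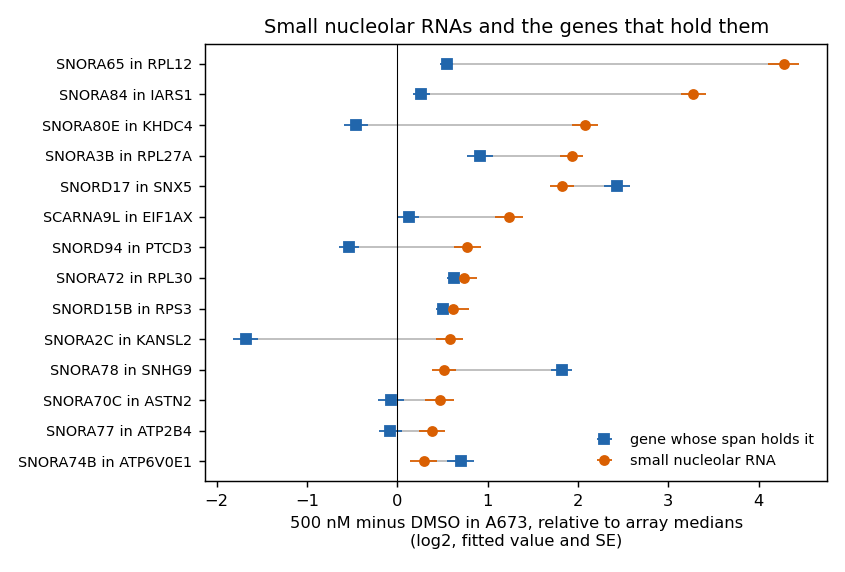
Difference between 500 nM and DMSO in A673 after centring (x axis, log2, fitted value with SE) for 14 small nucleolar RNAs (circles) and the gene whose annotated span alone holds each, where that gene was tested (squares). The circle lies right of its square in 11 of the 14 pairs, most widely for SNORA65, whose DMSO mean lay under the filter level, and SNORA84.

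Gene lists by function are described by how many tested members were called after centring, read against the 29.8% higher and 27.4% lower over all tested genes, and by their median, read against 0.10. Nearly every list fell as deposited. The lists below that stood under the typical gene did so under median, 75th-percentile and quantile centring alike unless their values are given. Among the kinases of the transcription cycle, 19 of 20 tested genes fell as deposited and 10 were lower after centring. MED13, a subunit that ties the kinase module to Mediator, went from 10.20 and 10.12 to 7.28 and 6.51, 9.6-fold, and its kinase CDK8 was at -0.80 relative to the array medians. CDK9, the kinase of P-TEFb, was at -0.62 and CDK7, that of TFIIH, at -1.08. MEPCE, which caps the 7SK RNA that stores P-TEFb, went from 10.60 and 10.45 to 8.23 and 7.80, while HEXIM1, the inhibitor in the same particle, went from 9.57 and 9.38 to 10.15 and 9.71, a relative difference of 1.29 ± 0.12 (limma adjusted p 4.96e-09). As deposited the rise of HEXIM1 (0.46) was called only with all 4 arrays or without THZ-2. The median of this list was -0.26, and 0.01 when arrays were centred on the 75th percentile. The 12 subunits of RNA polymerase II itself lay near the typical gene, with 5 higher and 1 lower and a median of 0.25. POLR2D was the one lower (-0.60) and POLR2F the highest (0.65). The 5 became 3 without THZ-1 and 8 without DMSO-2. Integrator, which cleaves RNA behind paused polymerase, fell: 13 of 13 as deposited and 9 after centring, with a median of -0.46. INTS6 went from 9.68 and 9.63 to 6.69 and 6.06 and INTS7 from 9.72 and 9.67 to 7.58 and 7.15, while the catalytic subunit gene INTS11 was at 0.30, a call lost without DMSO-1 or THZ-1. Of 25 nuclear RNA decay genes 13 were lower and 5 higher, the latter 2 without DMSO-1 or THZ-1. ZC3H4, of the restrictor complex that ends stray transcription, went from 10.30 and 10.27 to 5.90 and 5.71, at least 20.3-fold. The adaptors that feed RNA to the nuclear exosome fell with it, ZCCHC8 at -1.96, RBM7 at -1.52 and ZFC3H1 at -1.15, as did the exosome cap subunit EXOSC3 (-2.10). SRRT, which joins the cap-binding complex to these machines, went the other way, from 10.48 and 10.47 to 11.19 and 10.67 (1.29).

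Lists of genome maintenance and division lay under the typical gene, with medians between -0.80 and -0.42. Fanconi anaemia genes, which repair DNA crosslinks, had 11 of 17 lower and 1 higher (FANCC, 0.57), with a median of -0.56. PALB2, the partner of BRCA2, went from 9.44 and 9.15 to 6.04 and 5.54, at least 10.2-fold, FANCF from 9.02 and 8.97 to 7.13 and 6.73 and BRCA1 from 8.09 and 7.92 to 6.78 and 6.33. Of 30 centriole and centrosome genes 17 were lower, with a median of -0.57. Of the centriole duplication genes 6 of 7 were lower, with a median of -1.07, among them SASS6 (-1.87), which forms the cartwheel, and PLK4 (-1.24), the kinase that starts duplication. Of the pericentriolar genes 3 of 9 were lower, TUBGCP3 the most (-1.51), while TUBG1, gamma-tubulin itself, was at 0.14. CEP350 and CSPP1, at centriole ends, went from 8.96 and 8.70 to 5.18 and 4.93 and from 8.66 and 8.46 to 4.87 and 4.57, under the filter level. Within the cohesin system, which holds sister chromatids together, the regulators and the ring are given apart, with no test between them. The 9 genes of loading, acetylation and release had 8 lower and a median of -1.08: the loader subunit MAU2 went from 9.64 and 10.02 to 6.77 and 6.37, the release factor WAPL was at -1.51, the protector of centromeres SGO1 at -1.49 and the acetyltransferase ESCO1 at -1.29. The 5 ring genes had 1 lower, STAG1 (-0.50), and a median of 0.07, with SMC1A at 11.80 and 11.63 with DMSO against 11.42 and 10.82 at 500 nM. Of 7 condensin genes 3 were lower, NCAPH (-1.39) the furthest. Among 25 nuclear pore genes 15 were lower and 2 higher (0 or 1 without an array other than DMSO-2), with a median of -0.42. NUP153, of the nuclear basket, went from 11.25 and 11.16 to 8.28 and 7.85, POM121, of the membrane ring, was at -1.45, and SEC13, shared with the COPII coat, at 0.42. E2F transcription factors and the DREAM complex, which switch cell cycle genes on and off, had a median of -0.80, the lowest of the lists after median centring, with 12 of 17 lower, and one of -0.65 under quantile normalisation, where the list of ZNF genes also lay at -0.65. All 4 tested repressor E2Fs were lower, E2F8 from 8.32 and 8.28 to 4.47 and 4.44 (under the filter level), E2F7 from 9.79 and 9.76 to 6.91 and 6.40, and E2F6 and E2F4 at -1.81 and -0.92. Of the activators, E2F3 was at -2.43 and E2F2 at -0.63, but E2F1 at 0.13 did not pass the test (limma adjusted p 0.381). LIN9, of the MuvB core, went to 5.10 and 4.82 from 8.41 and 8.41, while MYBL2, which encodes B-MYB, was at 0.32, a call lost without DMSO-1 or THZ-1.

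Enzymes that write and erase histone methylation and acetylation had 24 of 36 lower and 4 higher, with a median of -0.47. The 4 became 2 without DMSO-2 or THZ-1. Of the demethylases 10 of 11 were lower with a median of -0.74, for example KDM2A (-1.18) and KDM5B, which went from 6.95 and 7.37 to 5.18 and 5.26. They erase different methyl marks. Among acetyltransferases KAT6A was lowest (-1.66) and CREBBP was at -0.68, but its paralogue EP300 was at -0.03 (limma adjusted p 0.841). SETD2, which trimethylates lysine 36 of H3 behind elongating polymerase, went from 9.48 and 9.49 to 7.60 and 7.05. NSD1, which methylates the same residue, went from 7.09 and 7.03 to 7.82 and 7.37 and rose on both scales (0.53 and 1.37), although as deposited the call was lost without DMSO-1, DMSO-2 or THZ-1. Of 36 chromatin remodelling genes 12 were lower and 5 higher, with a median of -0.07 that turned to 0.06 under quantile normalisation and 0.20 with the 75th percentile. The 5 became 2 without DMSO-1 or THZ-1 and 8 without DMSO-2. The spread within it was wide. In SWI/SNF, ARID2 (-2.93) and ARID1A (-1.15) fell, and the ATPase gene SMARCA4 was at 0.18 (adjusted p 0.168). Among CHD helicases CHD1 went from 9.59 and 9.65 to 6.65 and 6.48 and CHD9 from 9.50 and 9.41 to 6.79 and 6.42, while CHD2 went from 6.65 and 6.89 to 7.70 and 7.12 (1.47). INO80 fell to 5.85 and 5.89 from 8.59 and 8.67. The ZNF genes, most of them zinc finger transcription factors, formed the largest list. Of 245 tested, 163 were lower and 19 higher, with a median of -0.75 after centring and -1.58 as deposited, and in 166 both group means stayed at or above the filter level. ZNF7 was the lowest of those. ZNF644 went from 10.46 and 10.53 to 7.87 and 7.40 and ZNF772 from 9.06 and 8.98 to 6.22 and 5.87. The 1 member called higher as deposited was ZNF33A, with 6.45 and 6.33 with DMSO against 7.73 and 6.53 at 500 nM; THZ-1 lay far above THZ-2, and without THZ-1 the call was lost. Ubiquitin ligase genes of the RNF, TRIM and FBXO families had 49 of 110 lower and 21 higher, the latter 9 without THZ-1, with a median of -0.22 that was 0.05 with the 75th percentile. RNF111, which acts on SUMO-marked proteins, went from 8.82 and 8.79 to 4.91 and 4.74, TRIM13 from 9.21 and 9.15 to 6.20 and 5.91, and TRIM28, the corepressor that KRAB zinc finger proteins recruit, was at -0.15 as deposited and 0.68 after centring.

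**Figure D4:**
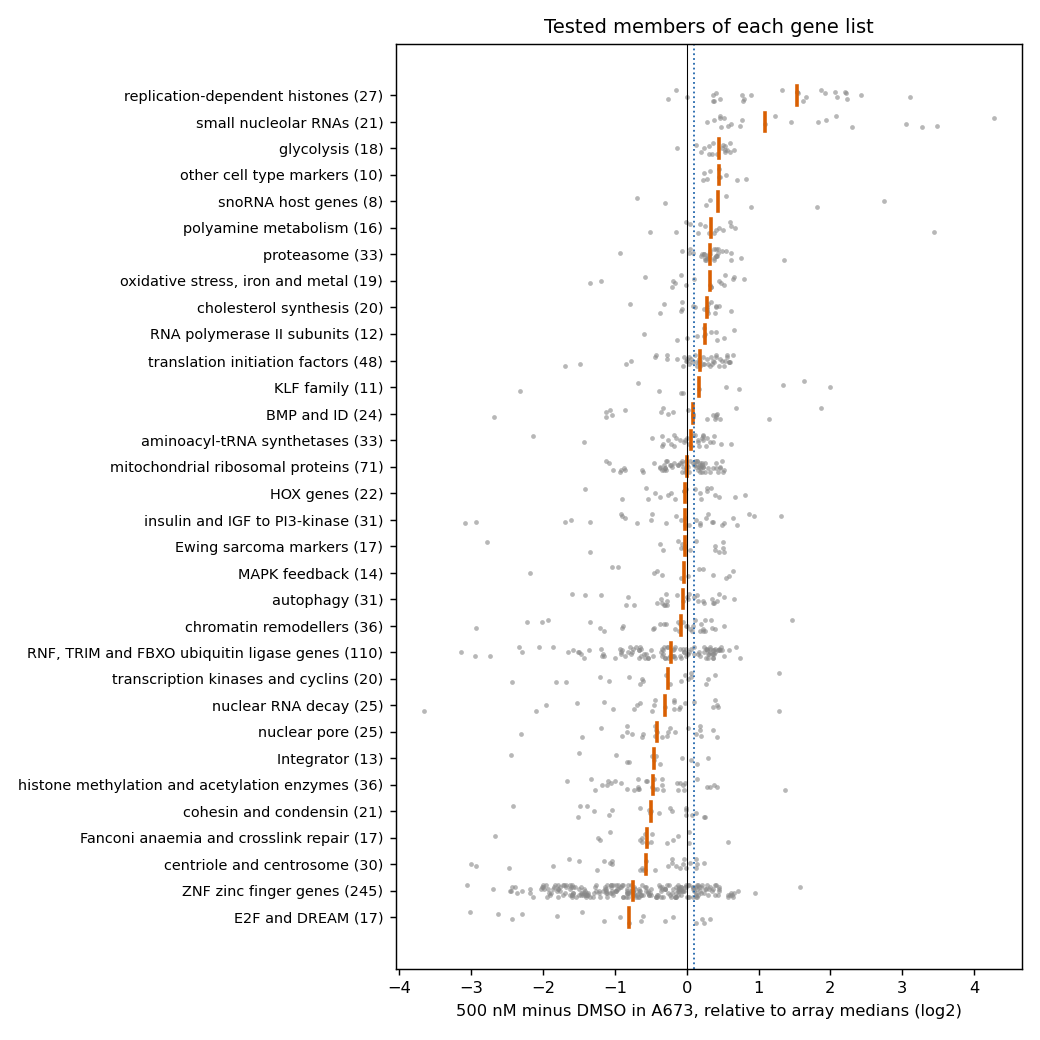
Difference between 500 nM and DMSO in A673 after centring (x axis, log2) for each tested member (grey points) of 32 gene lists, ordered by their median (orange bar), with the number tested in brackets. The dotted blue line marks the median of all tested genes, 0.10, and the lists run from E2F and DREAM at -0.80 to replication-dependent histones at 1.54.

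Signalling genes were mixed. In insulin and IGF signalling to PI3-kinase, which feeds growth and survival, 11 of 31 genes were lower and 9 higher. The ligand IGF1 and 4 of its 5 tested binding proteins were among the higher ones, for example IGFBP2 (-0.32 as deposited and 0.52 relative), and IGF1R, the receptor, was at 7.27 and 7.80 with DMSO against 7.83 and 7.29 at 500 nM. The adaptor IRS1 went from 9.06 and 8.94 to 5.38 and 5.09, at least 8.32-fold, the regulatory subunit PIK3R1 from 8.54 and 8.71 to 4.66 and 4.77, at least 6.42-fold, and TSC1, a brake on mTOR, from 9.80 and 9.70 to 7.57 and 7.04. SGK1, a kinase downstream of PI3-kinase, went from 11.98 and 12.02 to 12.67 and 12.29 and rose on both scales (0.48 and 1.31). Of 14 feedback inhibitors and targets of MAP kinase signalling 6 were lower (3 without DMSO-2) and 4 higher (2 without DMSO-1). SPRED1, a brake on RAS, went from 8.86 and 8.89 to 6.01 and 5.72, and the ETS factor ETV5 was at -0.95. The phosphatase gene DUSP6, a common readout of ERK activity, was at 11.81 and 11.82 with DMSO against 11.90 and 11.36 at 500 nM, with THZ-1 above both DMSO arrays and THZ-2 below both, and DUSP1 was at 0.54. In the BMP pathway 8 of 24 genes were lower and 10 higher (6 without THZ-1). Of its 4 tested signal transducers (SMAD genes) 3 were lower, among them SMAD1 at -1.12 and SMAD4 at -1.04. The receptor ACVR1 (-1.06) and the ligase SMURF2 (-1.13) were lower too. Of the ID genes, classical targets of BMP signals that block bHLH factors, ID1 went from 10.90 and 10.88 to 12.12 and 11.73, 1.03 ± 0.17 as deposited, ID2 from 12.13 and 12.19 to 12.59 and 12.35, and ID3 and ID4 were at 0.41 and 0.09 after centring. ID4 did not pass that test, and ID3 lay at -0.01 under quantile normalisation. The KLF zinc finger factors were mixed too. KLF5 went from 7.01 and 6.89 to 8.50 and 7.72, KLF10 from 9.51 and 9.63 to 10.67 and 10.07 and KLF6 from 9.74 and 9.58 to 10.42 and 9.91, all called on both scales, while KLF3 went from 9.01 and 9.23 to 6.16 and 5.80. Of 11 tested 5 were higher and 3 lower. The HOX genes that mark body position were near the typical gene, with 5 of 22 higher (3 without THZ-2) and 6 lower. HOXD4 was lowest, with 7.97 and 7.76 with DMSO against 5.74 and 5.49 at 500 nM, and HOXC10 highest (0.81), the latter at 6.70 and 6.28 with DMSO against 6.73 and 6.20 at 500 nM, so that the groups overlapped as deposited.

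The lists for glycolysis, the proteasome, polyamines, oxidative stress with metals, and cholesterol synthesis had medians between -0.55 and -0.38 as deposited, against -0.73 over all tested genes, and between 0.28 and 0.45 after centring, against 0.10. Under quantile normalisation cholesterol synthesis (0.34) and polyamine metabolism (0.19) stayed above the median of all tested genes, 0.119, while glycolysis (0.105), the oxidative stress list (0.07) and the proteasome did not. In glycolysis 12 of 18 genes were lower as deposited, with a median of -0.38, and 13 were higher after centring, 9 under quantile normalisation. The count of 12 fell to 2 without DMSO-1 and to 4 without THZ-2. GAPDH stood at 14.22 and 14.05 with DMSO against 14.14 and 13.78 at 500 nM and LDHA at 13.62 and 13.44 with DMSO against 13.45 and 13.14 at 500 nM, THZ-1 inside the DMSO range in both, and under quantile normalisation neither was called. By contrast the glucose transporter SLC2A1 went from 9.62 and 9.45 to 8.75 and 8.37. GAPDH and LDHA lie near the top of the arrays' range. In the highest of the 5 classes by DMSO level, which starts at 10.4, 47.7% of the genes were called higher. Of 33 proteasome genes 23 were higher and 1 lower, PSMD5 (-0.93). The 23 became 15 without DMSO-1 and 9 under quantile normalisation, with 5 lower, and the median of 0.32 became 0.00. PSMA1 alone rose as deposited, from 8.42 and 8.57 to 9.37 and 8.66, and not without DMSO-1 or THZ-1. Among genes of polyamine metabolism 8 of 16 were higher and 1 lower. SAT1 aside, they were far smaller in difference: ODC1, the first enzyme of synthesis, was at -0.45 as deposited, 0.38 after centring and -0.01 under quantile normalisation, the antizyme OAZ1 at 0.62 and the oxidase SMOX at 0.67, while AMD1, which makes the aminopropyl donor, was the one lower (-0.52). Of 19 genes of oxidative stress, iron and metal handling 10 were higher and 3 lower. NFE2L2, the gene of NRF2, went from 11.90 and 11.86 to 9.88 and 9.51, and its target GCLC, which makes glutathione, was at -1.19. Another target, NQO1, was at 0.52. All 5 tested metallothioneins, small proteins that bind zinc and copper, were higher after centring, between 0.32 and 0.65, and as deposited their differences were below 0. Cholesterol synthesis had 9 of 20 higher (4 without THZ-1, 5 without DMSO-1) and 3 lower (1 without DMSO-2 or either 500 nM array), SQLE (-0.37), IDI1 (-0.31) and the regulator INSIG2 (-0.78).

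The translation machinery was mixed. Of 48 genes whose symbols begin with EIF, most of them initiation factors, 20 were higher and 6 lower, with a median of 0.19. Under quantile normalisation it was 14 and 11 with a median of 0.05, under that of all tested genes, and with the 75th percentile 38 and 5. EIF3K (0.65), of the large EIF3 complex, and the helicase gene EIF4A1 (0.59, not called under quantile normalisation) were higher, while EIF5 went from 12.29 and 12.24 to 10.79 and 10.37, the cap-binding EIF4E was at -0.43 and the stress kinase gene EIF2AK3 went to 5.59 and 5.21 from 7.71 and 8.15. Of 33 aminoacyl-tRNA synthetase genes, which charge tRNAs, 8 were higher and 6 lower, and the counts rest on single arrays: the 8 became 2 without THZ-1 and 5 without DMSO-1, and the 6 became 2 without DMSO-2 and 3 without THZ-2. The lowest were the mitochondrial MARS2, from 9.05 and 9.29 to 6.49 and 5.91, and HARS2, from 8.29 and 8.41 to 6.31 and 5.86. Mitochondrial synthetases had 5 of 14 lower and 1 higher, the cytoplasmic ones 1 of 19 lower and 7 higher. Mitochondrial ribosomal protein genes (71 tested, with 1 antisense RNA, MRPL20-AS1, taken in by its symbol) had 17 lower and 12 higher. The 17 became 11 without DMSO-2 or THZ-2, and the 12 became 5 without DMSO-1 or THZ-1 and 43 with the 75th percentile. MRPL46 was at -1.08 and MRPL36 went from 12.11 and 11.76 to 10.41 and 9.73, while MRPL42 was at 0.52. Autophagy genes were mixed, with 11 of 31 lower and 7 higher (4 without DMSO-1 or THZ-2). The initiation genes had 6 of 9 lower, with PIK3R4 (-1.60) and PIK3C3 (-1.19), which form the lipid kinase of the early membrane, the furthest. The ATG8 proteins that coat the membrane and their receptors had 5 of 7 higher, for example MAP1LC3B (0.65) and GABARAP (0.51), and as deposited neither passed the test.

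The same dose in TC32 shares no array with this comparison, so the lines can be set side by side. Across the tested genes the differences as deposited correlated at r = 0.883 between the lines, a description across genes, which are not independent replicates. Relative to the array medians 2411 genes were lower in both lines, out of 2786 lower in A673 and 3121 lower in TC32, and 2572 were higher in both, out of 3026 and 4202. Opposite calls were 29 and 43. The effect itself was called larger, or less negative, in TC32 for 312 genes and smaller for 689 (3.07% and 6.78%, limma on the difference of differences). Under quantile normalisation these counts were 877 and 1337. A gene without this call was not shown to respond alike in both lines. The largest difference was in FOS. In A673 it went from 9.74 and 9.95 to 11.80 and 11.41, and in TC32 it stood at 10.57 and 10.74 with DMSO against 10.40 and 10.69 at 500 nM, so that TC32 minus A673 was -1.91 ± 0.22 after centring (adjusted p 4.77e-06). HEY1, a target of Notch and BMP signals, was dim in A673, at 5.97 and 6.23 with DMSO against 6.21 and 5.81 at 500 nM, and fell in TC32, from 8.96 and 8.82 to 6.76 and 7.16. PAX6, a transcription factor of eye and brain, was likewise dim in A673. NMI, an interferon-induced gene, was about as bright in both lines with DMSO and went to 9.52 and 9.20 in A673 but to 7.77 and 7.92 in TC32, a difference of -1.80 ± 0.16. The phosphate transporter SLC20A1 and SOWAHC completed this side, at -1.71 ± 0.17 and -1.67 ± 0.21. On the other side stood EGR1, an immediate-early zinc finger factor, which went from 10.76 and 10.56 to 12.06 and 11.55 in A673 and from 6.57 and 6.27 to 9.55 and 9.32 in TC32, where it began far lower. FOS and EGR1, both immediate-early genes, thus differed between the lines in opposite directions. GADD45A (1.56 ± 0.15), the histone gene H2BC21 (1.27 ± 0.16) and TXNIP (1.17 ± 0.16) also had the larger difference in TC32. TBC1D9 fell to 7.44 and 7.06 in A673 from 9.82 and 9.95, a difference of -1.80 relative to the array medians, against -0.41 in TC32, and the integrin gene ITGAV was at -0.70 against 0.45.

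**Figure D5:**
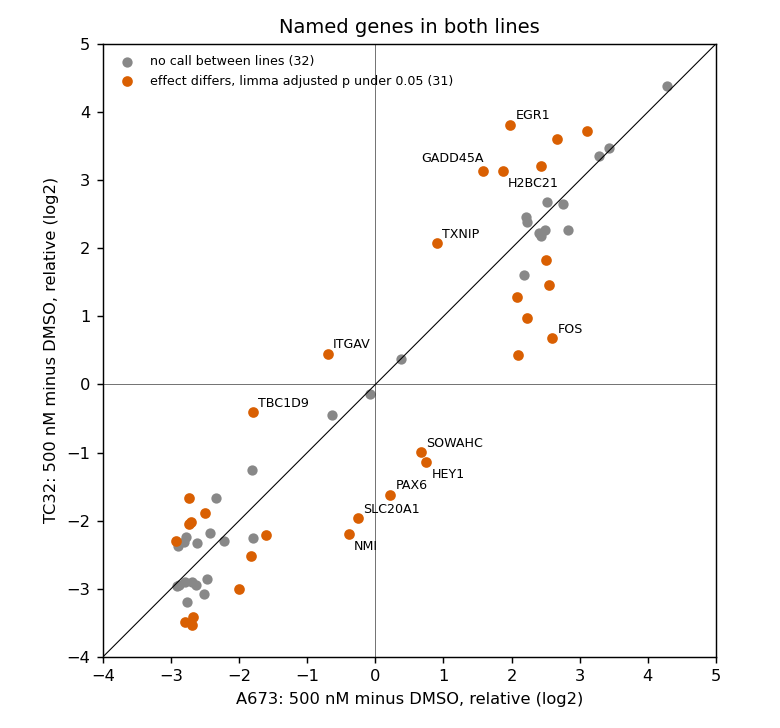
Difference between 500 nM and DMSO after centring (log2) in A673 (x axis) and TC32 (y axis) for the 63 genes named by size or as targets, with the line of equality. Orange marks the 31 whose effect differed between the lines by limma, and names stand beside the 12 chosen for the largest difference, from FOS and HEY1 below the line to EGR1 and GADD45A above it.

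Within A673 the 500 nM arrays were also set against the 100 nM arrays directly, 2 against 2. After centring, 1070 genes were higher at 500 nM and 2558 lower (10.5% and 25.2%). The array medians at 100 nM were 6.61 and 6.54, about where THZ-1 lay, and above THZ-2. Several genes near their DMSO level at 100 nM were far down at 500 nM. TADA1, of the SAGA coactivator, stood at 9.39 and 9.67 in the DMSO arrays, 9.46 and 9.25 at 100 nM and 6.93 and 6.45 at 500 nM, a difference between doses of -2.45 ± 0.17 (limma adjusted p 3.93e-10). RAPGEF2, an activator of the small GTPase RAP1, stood at 10.66 and 10.61, then 9.99 and 10.03, then 7.68 and 7.23. ZNF184, CHD1, ZNF217 and E2F3 followed, with differences between -2.33 and -2.18. In the other direction the 6 largest differences were those of EGR1, FOS, ZFP36, ARC, SAT1 and SNORA65. EGR1 stood at 10.76 and 10.56 in the DMSO arrays, 9.97 and 9.84 at 100 nM and 12.06 and 11.55 at 500 nM, with 2.11 ± 0.12 between the doses (adjusted p 4.31e-11). Against DMSO its difference at 100 nM was -0.76 as deposited and -0.14 after centring. FOS stood at 10.43 and 9.93 at 100 nM, ZFP36 at 8.54 and 8.68 and ARC at 8.12 and 8.22, and their differences between doses were 1.64, 1.62 and 1.67. SAT1 rose in steps, 8.51 and 8.47 at 100 nM, and SNORA65 likewise, 7.75 and 7.63. Other rises were already there at the low dose: SNX5 stood at 11.28 and 11.43 at 100 nM, and its difference between doses, 0.05 ± 0.15, did not pass the test (adjusted p 0.818).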

How the data were processed

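The deposited log2 signals came from 12 arrays (A673 and TC32, each with DMSO, 100 nM or 500 nM of THZ_5_31_1 for 6 hours, 2 per group). Per the labels, biotin-labelled total RNA carried ERCC controls. Per the submitters' processing notes MAS5, GRCh37 and hg19 were named, with no role, and the normalisation is not given in the sources used here. Of 49395 rows, those annotated to 1 gene with 3 decimals were used (43290). Another 1704 with fewer decimals, and 85 genes whose values another symbol shared, were left out. Where a gene had several value sets (10 genes) the brightest was used.

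Genes with a mean of at least 5.943 (40th percentile) were tested with limma 3.58.1 in R 4.3.3 (lmFit, eBayes with trend, all 12 arrays, 1 mean per group), with Benjamini-Hochberg adjusted p under 0.05, on values as deposited and after each array was centred on its median over the kept genes. As deposited, array offsets enter the spread of all genes together, so those p-values are too small. The quoted p-values are the centred ones. The 20 largest falls and rises were named among genes that passed on both scales with both group means above the filter level. The 6 largest differences per direction were named between lines and between doses. The other named genes were picked from the lists after their values were seen. Members and lists were chosen with earlier results of these data known. The fit was also run on simulated centred levels with independent noise and no offset between arrays. That run does not bear on the calls as deposited. Proteins were not analysed here. The number of arrays limits the precision.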

Additional observations from a re-analysis of the deposited data

Results flagged for a closer look

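The effect of 500 nM was not the same in both lines for every gene named above. Given in brackets is the TC32 effect minus the A673 effect on centred log2 values, each called by limma on that difference (Benjamini-Hochberg adjusted p under 0.05), as were 312 genes with the larger value in TC32 and 689 with the smaller.

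Among the genes named for the size of this difference, FOS (-1.91), HEY1 (-1.88), PAX6 (-1.84), NMI (-1.80), SLC20A1 (-1.71) and SOWAHC (-1.67) were lower in TC32, and EGR1 (1.84), GADD45A (1.56), TBC1D9 (1.39), H2BC21 (1.27), TXNIP (1.17) and ITGAV (1.15) were higher. Being chosen by it, they give no separate evidence.

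Among the largest falls and rises of A673, ZBED5 (-0.69), ZNF7 (-0.84), GDF6 (-0.74), ZFP36 (-1.09), GADD45B (-0.68), TLE4 (-1.25), HHEX (-1.66) and SNORA80E (-0.79) were lower in TC32 and ARID2 (0.62), FBXO28 (1.07), RAPGEF6 (0.68), FBXL5 (0.70), PUM2 (0.63), H2AC8 (0.61), IER3 (0.94) and H2BC8 (0.78) were higher. In TC32 the means of TLE4 (5.32 with DMSO, 5.49 at 500 nM) and HHEX (4.65 and 4.29) lay under the filter level in both groups. For these 2 genes a weaker response cannot be told from a lack of signal in TC32. SNORA80E (5.91), H2AC8 (5.01) and H2BC8 (5.24) were under it there with DMSO, and ZBED5 (5.59), ZNF7 (4.47) and RAPGEF6 (5.69) at 500 nM.

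Among members of the lists, genes named for the dose and the fusion partners, the value was lower in TC32 for ID4 (-1.44), ID1 (-1.41), NKX2-2 (-1.35), SNHG12 (-1.06), TADA1 (-1.001), ID3 (-0.87), AMD1 (-0.84), KHDC4 (-0.82), MEPCE (-0.76), FLI1 (-0.70), POLR2D (-0.67), DUSP1 (-0.66), E2F2 (-0.66), KLF10 (-0.66), ZNF184 (-0.60), SNHG7 (-0.56), KDM2A (-0.56) and NFE2L2 (-0.54). It was higher for H4C3 (0.38), INTS6 (0.54), CHD9 (0.67), NUP153 (0.70), MT2A (0.84), SASS6 (0.85), PIK3R1 (1.05), H3C1 (1.27) and H3C4 (1.35). All of the histone genes named here, H2AC8, H2BC8, H2BC21, H3C1, H3C4, H4C3, were on the higher side, and ID1, ID3 and ID4 on the lower. No explanation of these differences was tested.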

How the results depend on the processing

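Of 6012 gene values recomputed for 219 named genes, 5915 were counted as the same. Another 58 lost and 30 gained the call with the same sign, and 9 that were called in the main fit changed sign. Many settings left out an array of neither compared group, or changed only the filter or the estimate of the spread. Under these the difference itself could not change, only its call, so the count of 5915 is no measure of robustness. The 5915 also take in values without a call in the main fit that changed sign. Centred CCNK was one, at -0.08 in the main fit and 0.190 with the 75th percentile. The 9 were CCNK and EWSR1 as deposited, at 0.113 and 0.160 under quantile normalisation and 0.190 and 0.647 with the 75th percentile, and the centred values of CD99 (-0.058), H4C3 (-0.096), IARS1 (-0.173), ID3 (-0.011) and ODC1 (-0.010) under quantile normalisation. Both settings rescale the arrays.

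As deposited, the 96 higher and 8391 lower genes became 3637 and 2637 under quantile normalisation and 5881 and 2031 with the 75th percentile, which remove the offset between arrays. With no filter 149 were higher. With only the 4 compared arrays in the fit the counts were 54 and 4178, with fewer arrays to estimate the spread. Without 1 array at a time they ran from 71 (without THZ-1) to 163 (without THZ-2) and from 5913 to 9701. After centring, the 3026 higher became 5881 with the 75th percentile and 7403 of more genes with no filter, and ran from 1824 (without THZ-1) to 3126. The 2786 lower ran from 2308 to 2997.

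For TC32 minus A673 the 312 higher and 689 lower became 877 and 1337 under quantile normalisation and 1005 and 1091 with the 75th percentile. Without 1 array they ran from 130 (TC32 DMSO replicate 2) to 561 (DMSO-1) and from 351 (TC32 DMSO replicate 1) to 1111 (DMSO-2). The higher count also moved past 1.5 times to 180 without THZ-1, 170 without THZ-2, 163 without TC32 DMSO replicate 1 and 181 without TC32 500 nM replicate 2, and the lower count to 396 without THZ-1 and 405 without TC32 500 nM replicate 1. For 500 nM against 100 nM the 1070 higher became 2808 and 4537 under those scalings and ran from 426 (THZ-1) to 1418 (DMSO-2), with 493 and 509 without replicate 1 or 2 at 100 nM. The cause was not tested.

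The replicate numbers were not taken to pair the arrays. After centring, deviations of same-numbered arrays correlated between -0.155 and 0.239 over 6 pairs of groups. Centring removes any offset that same-numbered arrays share, so these values cannot decide whether the arrays were paired. Over the kept genes the median of replicate 2 lay under that of replicate 1 in every group. With a replicate block the counts were 103 and 8808 as deposited, 3094 and 2785 after centring, 442 and 811 between lines and 1173 and 2593 between doses. Fits with only the A673 arrays gave no value between lines, and the 4 compared arrays none between doses. The eBayes fit without trend, the filter at the 25th percentile and the median probe set moved no count by over 1.5 times.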
